A study of Homo sapiens with 14 samples.

Results

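The comparison described here set CFIm68 knockdown against CFIm68 overexpression in HEK 293 cells, a widely used line derived from human embryonic kidney. By the labels the comparison placed low against high CFIm68, of which only RNA was measured. It used the 3 CFIm68 knockdown and the 3 CFIm68 overexpression libraries, 6 of the 14 libraries of the series, chosen by their genotype labels, and all expressed genes. The study sequenced poly(A) RNA after lowering or raising CFIm25 or CFIm68, and its title names alternative polyadenylation, cellular signalling and miRNA biogenesis as its subjects. Knockdown was by siRNA delivered with Lipofectamine RNAiMAX, per the labels' protocols. How CFIm68 was overexpressed, from which construct, and whether the cells were a pool or 1 clone is not stated in the sources used here, nor is any treatment of the 3 control libraries, which carry a wild-type label and did not enter the comparison. No siRNA sequence is given there. The knockdown and overexpression libraries may thus also differ in how the cells were handled, and what this contributed was not tested.

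CFIm68, encoded by CPSF6, is a large subunit of cleavage factor I (CFIm), which binds nascent transcripts before they are cut and polyadenylated. In the complex a pair of small subunits, CFIm25 from NUDT21, contacts UGUA motifs in the RNA, and the large subunit, CFIm68 or its alternative CFIm59 from CPSF7, carries an arginine- and serine-rich domain that contacts the cleavage machinery. CFIm is known for favouring distal over proximal cleavage sites, so that its loss shortens the 3′ UTRs of many mRNAs, and a shorter 3′ UTR can drop binding sites for microRNAs and RNA-binding proteins. The values here are reads per gene and do not show which site was used.

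The 3 knockdown libraries held 24119597 to 28963694 counts and the 3 overexpression libraries 15822467 to 18297610, so low levels were measured with fewer reads in overexpression. Levels are given as CPM, counts as a share of the library on the usual scale, after the libraries were scaled to each other. Within a group, libraries correlated across genes at r = 0.994 to 0.997 (log2 CPM). No label says whether the replicates of a group were separate cultures, and p-values then measure only the spread of these libraries, which may be technical. Of 14 tested kidney and adrenal-like HEK 293 markers 4 were higher and 6 lower, and their summed level was 1934 to 1965 CPM in knockdown and 1972 to 2031 CPM in overexpression. PAX8 was not among the tested ones.

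The targeted transcript was measured first, as a check of the labels. CPSF6 (chromosome 12, 69239537 to 69274358, hg38) had 40.3, 41.6 and 42.2 CPM in the knockdown libraries and 714, 747 and 719 CPM in the overexpression libraries. The groups were far apart, with a mean of 41.4 ± 0.99 CPM in knockdown and 727 ± 17.5 CPM in overexpression (SD, n = 3 each), a 17.6-fold lower level in knockdown (log2 change -4.14 ± 0.05, edgeR adjusted p = 1.1e-25; quasi-likelihood test with Benjamini-Hochberg adjustment over all tested genes). Control libraries, which are given throughout on a scale common to all 14 libraries, had 263 to 274 CPM, between the groups. Counts per gene do not separate the resident gene from an introduced copy.

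The transcripts of both partner subunits were also lower when CFIm68 was low. NUDT21 (chromosome 16, 56429133 to 56452199) had 241, 230.1 and 222 CPM in the knockdown libraries and 643, 594 and 547 CPM in the overexpression libraries, with no overlap (log2 change -1.36 ± 0.05, edgeR adjusted p = 4.3e-16). Its control level was 502 to 536 CPM, nearer to overexpression. CPSF7 (chromosome 11, 61402641 to 61430031) had 226, 236 and 229 CPM in the knockdown libraries and 295, 280.3 and 299 CPM in the overexpression libraries, again with no overlap but with a much smaller gap (log2 change -0.34 ± 0.04, edgeR adjusted p = 2.1e-07). The median log2 change of all tested genes was -0.29 on chromosome 16 and -0.13 on chromosome 11. After the medians of neighbouring genes were removed, the median of the CFIm subunits moved from -1.36 to -1.13.

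**Figure D1:**
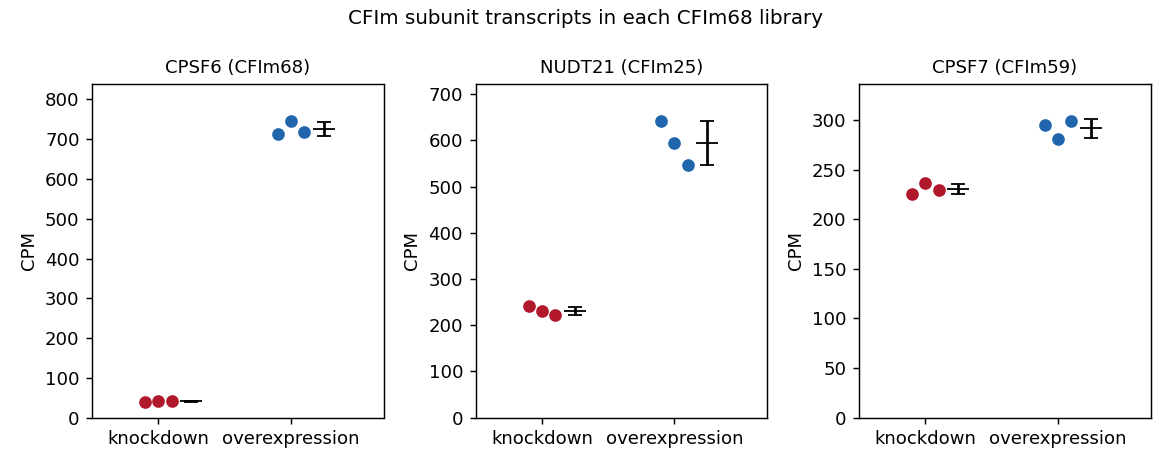
CFIm subunit transcripts. Each point is the CPM of 1 library (y axis, from 0), bars are the mean ± SD of 3 libraries, and knockdown (red) stands left of overexpression (blue). CPSF6 averages 41.4 CPM in knockdown and 727 CPM in overexpression, and NUDT21 and CPSF7 are lower in all 3 knockdown libraries by smaller margins.

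A large share of the transcriptome separated the groups. Of 11812 tested genes 8325 passed (70.5%; edgeR adjusted p under 0.05), of which 4138 were higher in knockdown (35.0%) and 4187 lower (35.4%), and the median log2 change over all tested genes was -0.00435. Most differences were small. At least 2-fold changes were reached by 688 genes that rose (5.82%) and 659 that fell (5.58%). The 3 libraries of one group did not overlap with those of the other for 8630 genes (73.1%). Against these shares the gene groups below have to be read, since a list in which about 35.0% of the members moves each way does what all genes do.

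**Figure D2:**
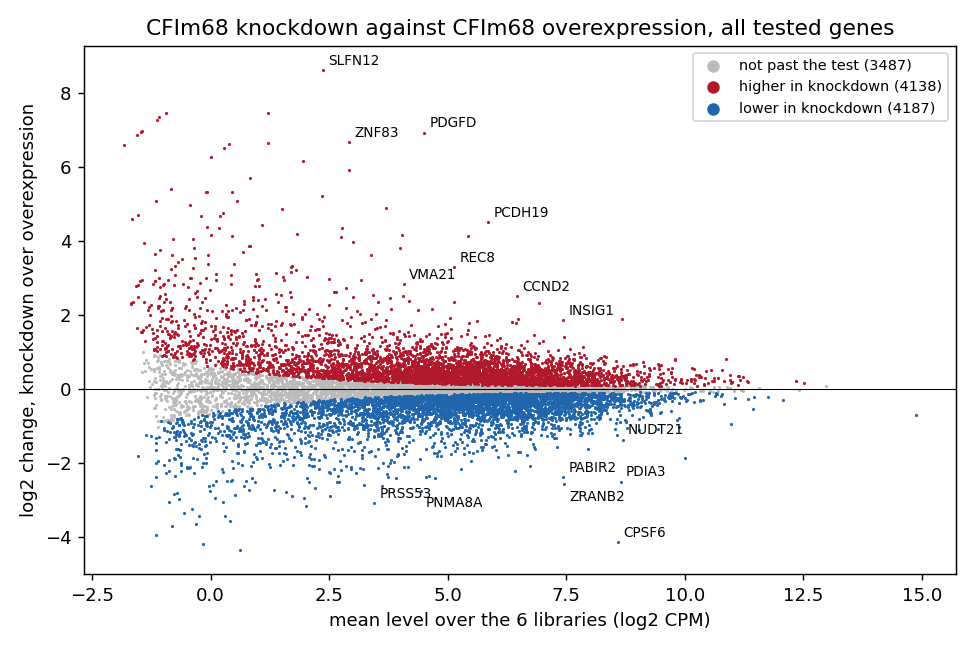
Change against level for all 11812 tested genes. The x axis is the mean level over the 6 libraries (log2 CPM) and the y axis the log2 change of knockdown over overexpression, with 4138 genes called higher (red), 4187 called lower (blue) and the rest grey. Rises reach further from 0 than falls, and CPSF6 lies at -4.14.

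Genes ranked by size of change had to average 5 CPM or more over the 6 libraries. They also had to pass the test without overlap between the groups' libraries, so separation of the groups was set by this choice. The largest rises were in genes that were almost silent in the overexpression libraries. SLFN12, a member of the Schlafen family, had 10.3, 10.6 and 9.89 CPM in the knockdown libraries and 0, 0 and 0.0624 CPM in the overexpression libraries. These are 305, 260 and 246 reads in knockdown and 0, 0 and 1 reads in overexpression, a ratio with a 95% counting interval of 94.3 to 20839 (log2 change 8.63 ± 0.33, edgeR adjusted p = 8.7e-16). PDGFD, a platelet-derived growth factor, had 47.5, 43.3 and 44.7 CPM in knockdown, against 0.323, 0.222 and 0.561 CPM in overexpression (log2 change 6.94 ± 0.15, edgeR adjusted p = 3.6e-20). The zinc finger genes ZNF83 and ZNF667 followed. ZNF83 had 14.9, 14.7 and 15.6 CPM in knockdown, against 0.129, 0.166 and 0.125 CPM in overexpression (log2 change 6.68 ± 0.21, edgeR adjusted p = 3.1e-17). ZNF667 had 14.9, 14.7 and 15.2 CPM in knockdown, against 0.453, 0.222 and 0.0624 CPM in overexpression (log2 change 5.91 ± 0.21, edgeR adjusted p = 3.7e-16). The highest overexpression value in these 4 genes was 0.561 CPM.

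Their control levels were far above overexpression. SLFN12 had 7.88 to 9.59 CPM in control, PDGFD 23.6 to 24.9 CPM, ZNF83 9.52 to 10.6 CPM and ZNF667 7.87 to 10.3 CPM. On log2(CPM + 0.5), the control mean was nearer to knockdown than to overexpression for 14 of the 15 largest rises. The exception was PHF7, a PHD finger protein of the male germ line, with 9.08, 10.8 and 9.97 CPM in knockdown, against 0.194, 0.277 and 0.312 CPM in overexpression (log2 change 5.21 ± 0.22, edgeR adjusted p = 3.8e-15) and 0.716 to 1.25 CPM in control. Over all 688 genes at least 2-fold higher the balance was the other way, with the control mean nearer to knockdown for 259 (37.6%) and nearer to overexpression for 429. PHF7 lies on chromosome 3, whose tested genes were shifted upwards as a whole (median log2 change 0.35). Its log2 change was 4.43 after the medians of neighbouring genes were removed. That step uses log2 CPM with a small added count, which also draws changes of genes with few reads towards 0. The values 5.21 and 4.43 thus differ by more than the neighbours.

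Others of the 15 encode surface, lipid and germ-line proteins. PCDH19, a protocadherin of the brain, had 112, 111 and 109 CPM in knockdown, against 5.24, 4.55 and 4.74 CPM in overexpression (log2 change 4.52 ± 0.07, edgeR adjusted p = 2.1e-22). STS, the steroid sulfatase, had 24.5, 26.2 and 24.96 CPM in knockdown, against 0.9702, 0.831 and 0.748 CPM in overexpression, and its tested neighbour on chromosome X, the pseudouridine phosphatase gene PUDP, had 84.7, 79.6 and 82.00 CPM in knockdown, against 6.34, 4.16 and 3.49 CPM in overexpression. Both were higher in knockdown, by log2 changes of 4.88 ± 0.13 and 4.15 ± 0.10 (edgeR adjusted p = 2.8e-18 and 3.0e-19). ASTN1, a neuronal adhesion protein of migrating neurons, rose by 4.36 ± 0.16, PLA2G4A, the cytosolic phospholipase that releases arachidonic acid, by 3.81 ± 0.12, and REC8, the meiotic cohesin subunit, by 3.29 ± 0.10. REC8 had 63.7, 65.9 and 61.2 CPM in knockdown, against 4.72, 6.65 and 8.05 CPM in overexpression and so kept a low level in overexpression. ZNF468, ZNF808, ZNF816 and ZNF681 complete the 15 and are described with their neighbours below.

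**Figure D3:**
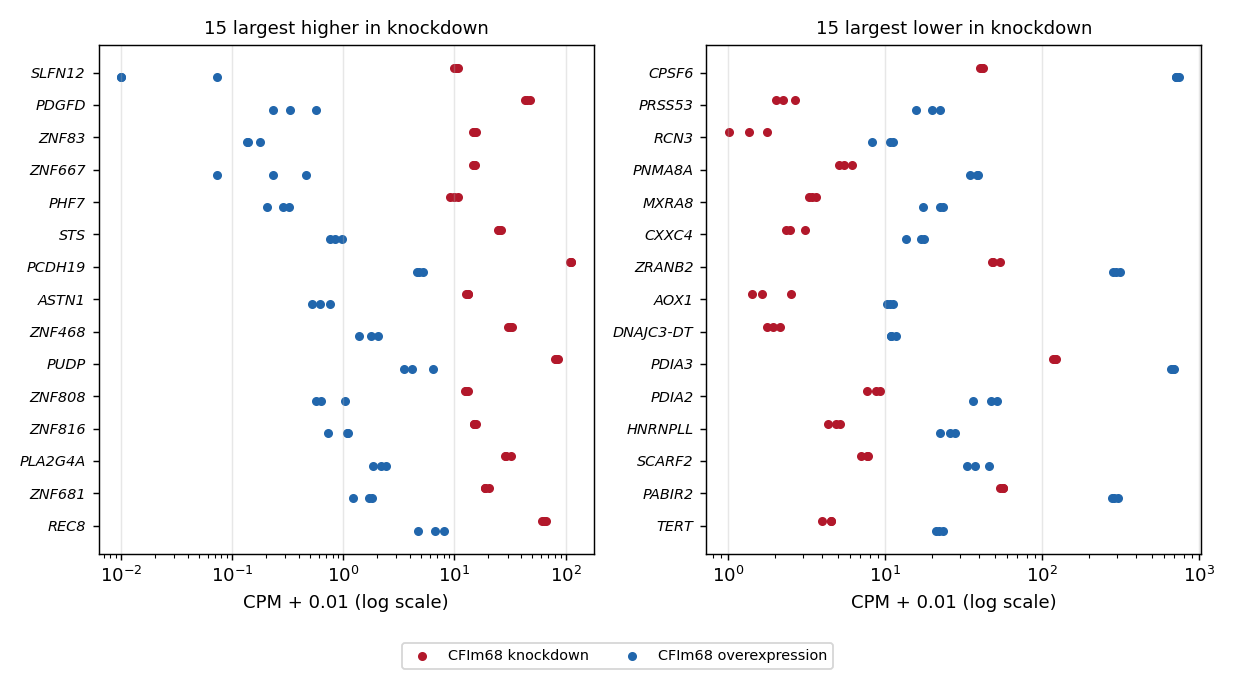
The 15 largest rises (left) and falls (right) of genes that averaged 5 CPM or more. Each point is 1 library on a log axis (CPM + 0.01), knockdown red and overexpression blue. The colours are separate in every row because the genes were chosen so, and all overexpression points of SLFN12, PDGFD, ZNF83 and ZNF667 are below 1 CPM.

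By a second rule, a mean of at least 5 CPM in one group and under 0.5 CPM in every library of the other, 7 genes were near 0 in overexpression and 0 in knockdown. Beside SLFN12, ZNF83, ZNF667 and PHF7 these were RAB17, MAGI2 and TAF7L. RAB17, a small GTPase of epithelial transport, had 242, 169 and 192 reads in knockdown and 3, 1 and 1 reads in overexpression, a ratio with a 95% counting interval of 33.4 to 242. MAGI2, a membrane-associated scaffold protein, had 152, 141 and 140 reads in knockdown and 1, 3 and 5 reads in overexpression (16.3 to 68.8). TAF7L, a germ-cell paralogue of a TFIID subunit, had 212, 172 and 149 reads in knockdown and 5, 8 and 5 reads in overexpression (12.1 to 32.7). The intervals cover counting error only. RefSeq promoters (GRCh38.p14; 250 bases before to 50 after the annotated start) were found for 6 of the 7. They are shown for 4 because these genes shared a near-silent state in overexpression, with capitals marking the dinucleotide CG, the site of DNA methylation in human cells.
SLFN12 (chr17:35433125-35433424, minus strand): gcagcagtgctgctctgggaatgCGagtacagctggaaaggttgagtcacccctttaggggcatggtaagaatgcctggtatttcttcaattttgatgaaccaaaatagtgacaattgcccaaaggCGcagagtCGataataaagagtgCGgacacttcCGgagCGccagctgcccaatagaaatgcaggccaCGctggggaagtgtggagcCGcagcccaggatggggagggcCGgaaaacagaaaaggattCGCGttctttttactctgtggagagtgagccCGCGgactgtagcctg
ZNF83 (chr19:52690447-52690746, minus strand): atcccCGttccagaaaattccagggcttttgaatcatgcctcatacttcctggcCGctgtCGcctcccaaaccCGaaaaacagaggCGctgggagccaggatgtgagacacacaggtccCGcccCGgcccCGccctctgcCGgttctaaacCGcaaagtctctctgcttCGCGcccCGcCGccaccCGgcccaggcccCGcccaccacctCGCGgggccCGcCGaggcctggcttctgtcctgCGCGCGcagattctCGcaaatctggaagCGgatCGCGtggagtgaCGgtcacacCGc
ZNF667 (chr19:56477296-56477595, minus strand): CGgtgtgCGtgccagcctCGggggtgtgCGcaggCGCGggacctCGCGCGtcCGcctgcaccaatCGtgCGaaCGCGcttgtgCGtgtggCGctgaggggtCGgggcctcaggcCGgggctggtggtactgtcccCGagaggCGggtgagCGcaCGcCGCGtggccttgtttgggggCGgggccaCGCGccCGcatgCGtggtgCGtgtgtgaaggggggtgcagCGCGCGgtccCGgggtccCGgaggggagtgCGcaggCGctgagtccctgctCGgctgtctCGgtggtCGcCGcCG
RAB17 (chr2:237590685-237590984, minus strand): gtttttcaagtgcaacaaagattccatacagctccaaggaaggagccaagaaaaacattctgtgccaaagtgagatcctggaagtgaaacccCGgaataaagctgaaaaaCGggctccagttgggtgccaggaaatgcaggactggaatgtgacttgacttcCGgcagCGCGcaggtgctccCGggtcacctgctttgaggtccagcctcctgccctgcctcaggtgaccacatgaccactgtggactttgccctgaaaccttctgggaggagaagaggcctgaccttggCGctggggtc

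These windows hold 13 CG pairs for SLFN12, 29 for ZNF83, 42 for ZNF667 and 7 for RAB17. With a GC content of at least 50% and an observed over expected CG ratio of at least 0.6 taken as CG-rich, SLFN12, ZNF83, ZNF667 and MAGI2 qualified and RAB17 and TAF7L did not. The same holds for 46.91% of all 35116 RefSeq promoters of this length and for 74.4% of 13944 promoters of tested genes. Methylation itself was not measured.

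Zinc finger genes of chromosome 19 formed runs of neighbours that were low in overexpression. This pattern was noticed in the values and then counted. Of 175 tested genes with a ZNF symbol on chromosome 19, 31 were at least 2-fold higher in knockdown (17.7%) and 1 lower (0.571%), whereas the median log2 change of the 175 was 0.10. ZNF genes on other chromosomes had 13 of 198 at least 2-fold higher (6.57%), and the other genes of chromosome 19 had 28 of 669 (4.19%). Most ZNF genes with many finger repeats, including the KRAB type, act as DNA-binding repressors, and chromosome 19 carries large clusters of them that arose by duplication.

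A run was defined as at least 4 tested neighbours that all changed at least 2-fold in one direction, and 9 runs were found, 5 higher and 4 lower in knockdown. The longest had 5 genes, ZNF610, ZNF880, ZNF808, ZNF701 and ZNF83 (chromosome 19, 52336245 to 52690496), with log2 changes of 2.18 to 6.68. After 1 gene, ZNF611, whose log2 change of 0.95 fell just short, a further 4 followed, ZNF600, ZNF28, ZNF468 and ZNF816 (52749942 to 52962911), with 3.87 to 5.08. Some of these members were barely expressed. ZNF610 averaged 0.586 CPM in knockdown and 0.105 CPM in overexpression, ZNF701 0.667 CPM in knockdown and 0.0216 CPM in overexpression, and ZNF28, which gives the 5.08, 0.874 CPM in knockdown and 0.0208 CPM in overexpression. The run lengths rest on these low genes too. ZNF468 had 32.6, 30.04 and 31.4 CPM in knockdown, against 1.75, 2.05 and 1.37 CPM in overexpression. ZNF816 had 14.8, 15.6 and 15.03 CPM in knockdown, against 1.100, 0.721 and 1.06 CPM in overexpression. ZNF808 had 12.6, 13.1 and 12.5 CPM in knockdown, against 1.03, 0.554 and 0.624 CPM in overexpression. Exons of ZNF808, ZNF701, ZNF28, ZNF468 and ZNF816 overlap those of a neighbour on their strand, and reads there could be counted for either gene.

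The difference was not shared by every gene of the stretch. PPP2R1A, a phosphatase scaffold gene among them, had a log2 change of 0.08 ± 0.04 (edgeR adjusted p = 0.075), and farther out ZNF350, ZNF615 and ZNF614 on one side and ZNF761 on the other did not pass either, at -0.09, 0.03, -0.05 and 0.05. ZNF432 and ZNF841, between ZNF614 and PPP2R1A, were lower in knockdown, at -0.46 ± 0.07 and -0.32 ± 0.06 (edgeR adjusted p = 7.1e-06 and 3.2e-05), and share exons with a neighbour. Another run on the same chromosome, ZNF506, ZNF93, ZNF682 and ZNF66 (19785839 to 20807322), was at low levels. ZNF682 averaged 3.48 CPM in knockdown and 0.0608 CPM in overexpression, ZNF506 1.93 CPM in knockdown and 0.241 CPM in overexpression, and ZNF93 and ZNF66 were below 1 CPM in both groups, ZNF93 with 0 reads in every overexpression library. ZNF681, which rose by 3.64 ± 0.13 (edgeR adjusted p = 3.3e-16), was not in a run. Outside chromosome 19 the runs were weaker or of other gene types. MAGEC2, FMR1, AFF2 and IDS on chromosome X (142202345 to 149521096) were higher by 1.01 to 5.41, and GUCY2D, ALOX15B, ALOX12B and ALOXE3 on chromosome 17 by 1.10 to 3.0. The upper values came from genes at low levels. MAGEC2 averaged 1.10 CPM in knockdown and 0.0185 CPM in overexpression, and ALOX15B 1.33 CPM in knockdown and 0.163 CPM in overexpression. The 4 lower runs were KLHL17, PLEKHN1, HES4 and ISG15 on chromosome 1 (-1.77 to -1.05), TONSL, KIFC2, FOXH1 and PPP1R16A on chromosome 8 (-1.29 to -1.07), HAL, ELK3, CDK17 and CFAP54 on chromosome 12 (-1.25 to -1) and FBXL8, AC074143.1, HSF4 and NOL3 on chromosome 16 (-1.58 to -1.24). FOXH1 was below 1 CPM in both groups, and 3 of the 4 genes on chromosome 16 share exons with a neighbour on their strand.

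**Figure D4:**
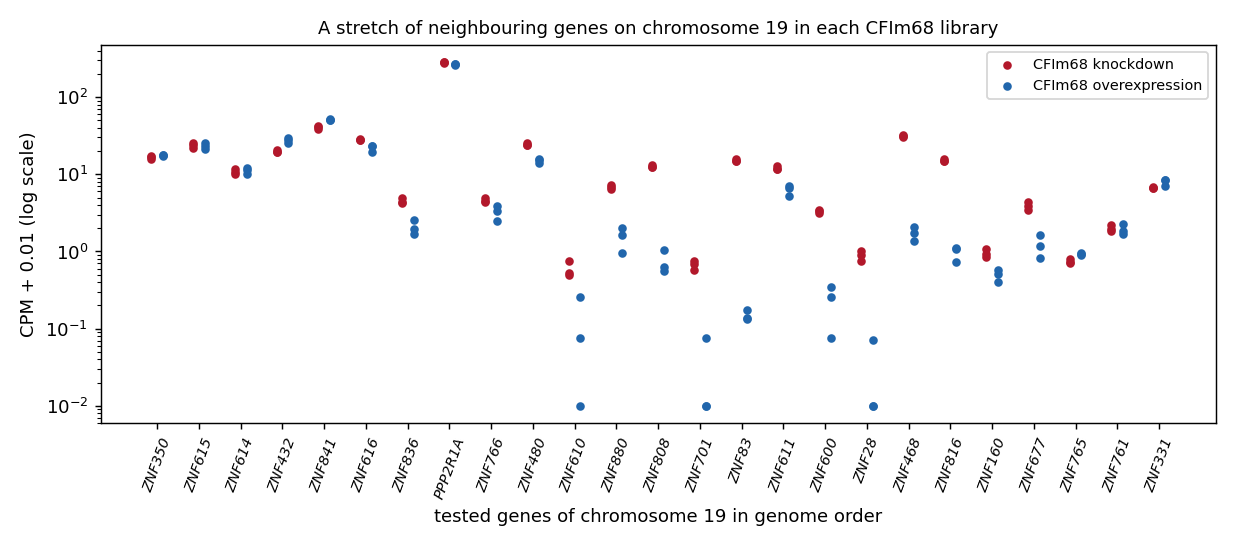
Tested genes of a stretch of chromosome 19 in genome order (x axis). Each point is the level of 1 library (y axis, log scale of CPM + 0.01), knockdown red and overexpression blue. From ZNF610 to ZNF816 the blue points drop below the red ones, with ZNF83 at 0.125 to 0.166 CPM in overexpression, and at the outermost genes the colours lie together.

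The largest falls, after CPSF6 itself, were of a different kind, since no gene that averaged 5 CPM or more in overexpression went below 0.5 CPM in every knockdown library. PDIA3, a disulfide isomerase that helps fold glycoproteins in the endoplasmic reticulum, had 124, 117 and 121 CPM in the knockdown libraries and 696, 669 and 681 CPM in the overexpression libraries (log2 change -2.50 ± 0.04, edgeR adjusted p = 2.5e-22). ZRANB2, an RNA-binding splicing protein, had 53.9, 48.1 and 48.7 CPM in knockdown, against 315, 297 and 284 CPM in overexpression (log2 change -2.57 ± 0.05, edgeR adjusted p = 1.8e-20). PABIR2, a member of a family of phosphatase regulators, had 56.98, 56.97 and 54.4 CPM in knockdown, against 307, 288 and 278 CPM in overexpression (log2 change -2.37 ± 0.05, edgeR adjusted p = 1.8e-20). In these 3 genes control levels of 586 to 643 CPM, 204 to 211 CPM and near 242 CPM lay near overexpression.

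Lower-level genes filled the rest of the 15 falls. PRSS53, a serine protease gene, had 2.24, 2.01 and 2.65 CPM in knockdown, against 15.8, 19.95 and 22.6 CPM in overexpression (log2 change -3.08 ± 0.14, edgeR adjusted p = 9.4e-15), and its exons overlap a neighbour on its strand. HNRNPLL, a splicing regulator of lymphocytes, had 4.91, 5.198 and 4.34 CPM in knockdown, against 27.8, 22.4 and 25.9 CPM in overexpression (log2 change -2.39 ± 0.10, edgeR adjusted p = 3.8e-15). PDIA2, a pancreas-type disulfide isomerase, had a log2 change of -2.39 ± 0.10, and RCN3, a calcium-binding protein of the endoplasmic reticulum, of -2.89 ± 0.17. TERT, the catalytic subunit of telomerase, had 4.51, 4.502 and 3.98 CPM in knockdown, against 21.2, 22.2 and 23.6 CPM in overexpression (log2 change -2.36 ± 0.09, edgeR adjusted p = 1.8e-15). PNMA8A at -2.75 ± 0.09, the surface receptor genes MXRA8 at -2.61 ± 0.12 and SCARF2 at -2.37 ± 0.10, the WNT inhibitor gene CXXC4 at -2.60 ± 0.13, the aldehyde oxidase gene AOX1 at -2.52 ± 0.15 and the divergent transcript DNAJC3-DT at -2.52 ± 0.13 were the others. For PNMA8A the control level lay nearer to knockdown, with 9.36 to 12.6 CPM in control against 34.7 to 39.0 CPM in overexpression. Over the 15 falls the control mean was nearer to overexpression for 13, and over all 659 genes at least 2-fold lower for 506.

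The rest of the 3′ end machinery did not follow CFIm as a block. Of 10 tested subunits of CPSF and CstF, which recognise the poly(A) signal and the downstream element, 3 rose, 3 fell and 4 did not pass, with a median log2 change of 0.01, which turned to -0.08 with neighbouring medians removed. CPSF2, a partner of the cleavage endonuclease, had 387, 385 and 383 CPM in knockdown, against 227, 214 and 203 CPM in overexpression (log2 change 0.84 ± 0.04, edgeR adjusted p = 1.1e-13), a change of 0.33 once the medians of neighbouring genes were removed. WDR33, which reads the poly(A) signal, rose by 0.34 ± 0.06. The scaffold gene CPSF1 (-0.48 ± 0.05) and the endonuclease gene CPSF3 (0.17 ± 0.05) passed in opposite directions, and both turned sign after the removal of neighbouring medians, at 0.17 and -0.14. SYMPK, the symplekin scaffold, stood at -0.18 ± 0.05, a call that the same step ended (-0.03), and CSTF2 at -0.16 ± 0.05, a call lost without CFIm68 overexpression replicate 2 (-0.13, edgeR adjusted p = 0.051). Among 19 tested genes of CFIIm, poly(A) polymerase and termination 9 rose and 6 fell. PABPC1, the cytoplasmic poly(A)-binding protein, had 1331, 1406 and 1351 CPM in knockdown, against 934, 891 and 905 CPM in overexpression (log2 change 0.58 ± 0.04, edgeR adjusted p = 4.3e-12). PAPOLA, the canonical poly(A) polymerase, was at 0.58 ± 0.05 and at 0.08 with neighbouring medians removed, where it did not pass. Exons of PABPC1 and CPSF1 overlap a neighbour on their strand.

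Genes published as targets of CFIm-dependent site choice were more often higher than lower in knockdown. Of 14 tested, 8 rose, 4 fell and 2 did not pass, with a median log2 change of 0.43 beside -0.00435 for all genes, and of 0.21 with neighbouring medians removed. VMA21, which helps assemble the proton pump of lysosomes, had 31.4, 28.7 and 28.6 CPM in the knockdown libraries and 5.69, 3.77 and 3.12 CPM in the overexpression libraries (log2 change 2.83 ± 0.12, edgeR adjusted p = 3.9e-15). DICER1, the endonuclease that cuts precursor microRNAs, had 5.79, 7.12 and 7.799 CPM in knockdown, against 1.94, 2.55 and 2.25 CPM in overexpression (log2 change 1.6 ± 0.16, edgeR adjusted p = 8.1e-09). In both genes control libraries, at 4.903 to 6.97 CPM and 2.31 to 2.89 CPM, lay with or just above overexpression. GSK3B, a kinase of WNT and insulin signalling, rose by 1.12 ± 0.07, CCND1, cyclin D1, by 0.77 ± 0.09 and RHOA, a GTPase of the actin cytoskeleton, by 0.47 ± 0.04. FHL1, a LIM domain protein, had 100.8, 97.04 and 105 CPM in knockdown, against 194, 201 and 198 CPM in overexpression (log2 change -0.97 ± 0.05, edgeR adjusted p = 2.2e-14). PAK1, a kinase downstream of RAC, fell by 0.66 ± 0.05. GSK3B and RHOA lie on chromosome 3, and DICER1 on chromosome 14, whose medians were shifted upwards. With neighbouring medians removed DICER1 stood at 1.04, GSK3B at 0.76 and RHOA at 0.27, all still past the test.

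To show the motif that CFIm25 reads at the ends of genes that went in opposite ways, TGTA (UGUA in RNA) is printed in 30 bases. VMA21 and DICER1 rose, and PDIA3 and ZRANB2 fell. The site shown is the last before the annotated 3′ end that left room for the 30 bases, so a TGTA nearer the end was passed over. Sequences are from GENCODE 29 on hg38, on the strand of the gene, and capitals mark the site shown.
VMA21 (chrX:151409311-151409340, plus strand): taatttgtataaaTGTAccatctgatgtca
DICER1 (chr14:95086251-95086280, minus strand): tttttgtaataatTGTAgccaagtaaatct
PDIA3 (chr15:43773198-43773227, plus strand): cgcttttcttctcTGTAacttgggtactgc
ZRANB2 (chr1:71063346-71063375, minus strand): tactgtagacaaaTGTAaataaagcctgtg

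The last 100 bases held TGTA on the transcribed strand 5 times in VMA21, 2 times in DICER1, 1 time in PDIA3 and 3 times in ZRANB2, so genes of either direction had it. CCND2 and TNRC6B, both higher in knockdown, had 0 there by this count, which leaves out a TGTA nearer the end. Over all 11658 tested genes with an annotated 3′ UTR 54.9% had at least 1 in the full 100 bases, a wider count. A match is a string in the annotation and not a measured binding site.

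MicroRNA biogenesis is named in the study's title. Among 9 tested argonaute and TNRC6 genes and their partners, which form and assist the silencing complex, 7 rose, 1 fell and 1 did not pass, with a median log2 change of 0.79 (0.54 with neighbouring medians removed). TNRC6B, the scaffold that recruits deadenylases, had 73.3, 78.7 and 77.4 CPM in the knockdown libraries and 22.2, 22.3 and 19.1 CPM in the overexpression libraries (log2 change 1.85 ± 0.06, edgeR adjusted p = 1.7e-16). The argonaute genes rose as well. AGO4 had 94.9, 104 and 99.5 CPM in knockdown, against 51.6, 52.3 and 47.6 CPM in overexpression (log2 change 0.98 ± 0.05, edgeR adjusted p = 3.9e-13). AGO2, which can slice its target and overlaps a neighbour on its strand, had 194, 189 and 196 CPM in knockdown, against 102, 116 and 104 CPM in overexpression (log2 change 0.84 ± 0.05, edgeR adjusted p = 1.1e-12). AGO3 rose by 0.36 ± 0.06 and AGO1 by 0.33 ± 0.05. FMR1 and FXR1, RNA-binding proteins of the fragile X family, rose by 1.01 ± 0.06 and 0.79 ± 0.04. FMR1 lies in a run of higher neighbours on chromosome X, and FXR1 on chromosome 3, whose median was shifted upwards. AGO4, AGO1 and AGO3 lie close together on chromosome 1. MOV10, a helicase that binds argonaute, was the 1 that fell (-0.50 ± 0.05).

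Of 17 tested genes of microRNA processing and export, 4 rose, 10 fell and 3 did not pass, with a median of -0.13. DROSHA, the nuclear endonuclease that starts processing, had 57.5, 60.1 and 58.5 CPM in knockdown, against 86.9, 83.97 and 87.3 CPM in overexpression (log2 change -0.55 ± 0.05, edgeR adjusted p = 1.1e-09). DGCR8, its RNA-binding partner, fell by 0.50 ± 0.06, and DDX17, a helicase of the same complex, fell by 0.63 ± 0.04. XPO5, the exporter of precursor microRNAs, had 475, 470.1 and 483 CPM in knockdown, against 616, 599 and 598 CPM in overexpression (log2 change -0.34 ± 0.04, edgeR adjusted p = 2.6e-08). DDX5 was at -0.13 ± 0.05, a call lost without CFIm68 knockdown replicate 1 (-0.10, edgeR adjusted p = 0.10). DICER1, described above, was 1 of the 4 that rose. KHSRP, another of them at 0.30 ± 0.04, turned to -0.07 when neighbouring medians were removed, where it did not pass. The others were RAN, the GTPase that drives export, at 0.30 ± 0.11 (edgeR adjusted p = 0.014) and LIN28B, which binds let-7 precursors, at 0.21 ± 0.07 (edgeR adjusted p = 0.012). MicroRNAs themselves were not measured.

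Splicing genes were more often lower than higher in knockdown. Of 19 tested SR and TRA2 proteins and their kinases, which bind exons and promote their inclusion, 3 rose and 13 fell, with a median log2 change of -0.34. SRSF12, a small SR protein, had 24.4, 21.6 and 23.8 CPM in knockdown, against 78.1, 75.7 and 69.4 CPM in overexpression (log2 change -1.67 ± 0.06, edgeR adjusted p = 5.8e-16). SRSF7, an SR protein that also takes part in polyadenylation site choice, had 377, 388 and 386 CPM in the knockdown libraries and 681, 664 and 666 CPM in the overexpression libraries (log2 change -0.81 ± 0.04, edgeR adjusted p = 1.8e-14). SRRM2, a scaffold of nuclear speckles on chromosome 16, had 96.8, 110.4 and 106 CPM in knockdown, against 201, 222 and 220.0 CPM in overexpression (log2 change -1.04 ± 0.05, edgeR adjusted p = 7.4e-14), and TRA2A fell by 0.97 ± 0.06. In each of these genes, picked by adjusted p, every knockdown library was below every overexpression library. Of all tested genes 73.1% had groups without overlap.

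Heterogeneous nuclear ribonucleoproteins, which package nascent RNA, had 2 of 20 higher and 11 lower, with a median of -0.12. HNRNPR fell by 0.84 ± 0.05 and HNRNPDL fell by 0.69 ± 0.05, beside HNRNPLL above. Of 34 tested genes of the core spliceosome 6 rose and 17 fell, with a median of only -0.08 (-0.04 with neighbouring medians removed). SNRPA1, a protein of the U2 particle, had 79.95, 78.1 and 70.99 CPM in knockdown, against 134, 127 and 124 CPM in overexpression (log2 change -0.75 ± 0.05, edgeR adjusted p = 1.9e-11), and U2AF2, which reads the polypyrimidine tract, fell by 0.52 ± 0.04.

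**Figure D5:**
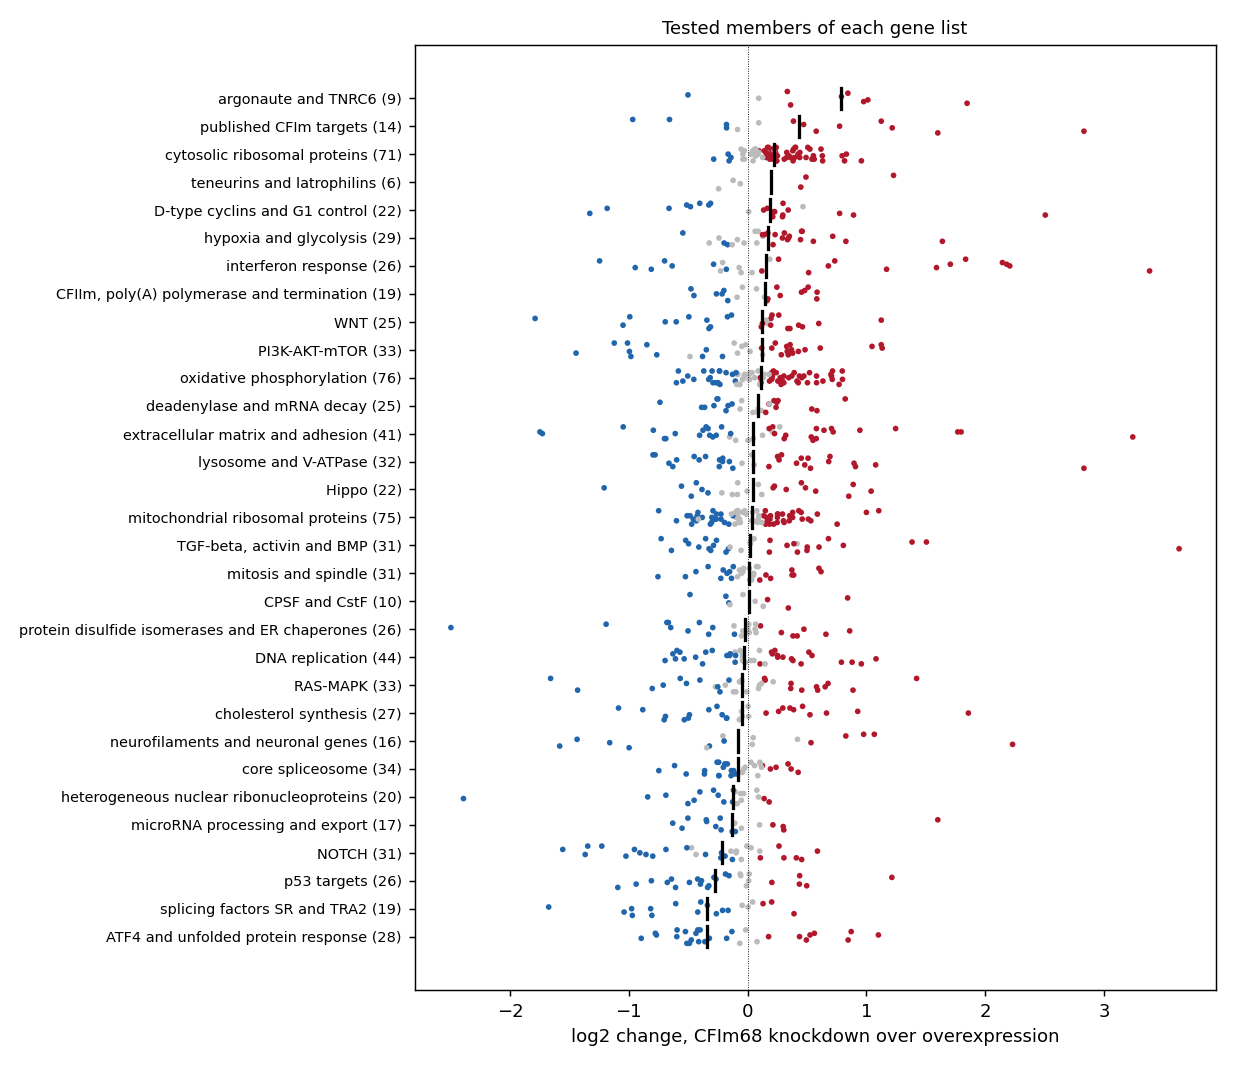
Members of each gene list with at least 5 tested genes, ordered by median. The x axis is the log2 change of knockdown over overexpression, each point is 1 gene (red higher, blue lower, grey not past the test), black bars are list medians and the number of tested genes stands in parentheses. The argonaute and TNRC6 list has its median at 0.79, the SR and TRA2 list at -0.34.

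Signalling genes moved in both directions. NOTCH signalling, a contact-dependent pathway, had 6 of 31 members higher, 16 lower and 5 at least 2-fold lower, with a median of -0.22 (-0.14 with neighbouring medians removed). The receptor gene NOTCH1 had 28.1, 26.5 and 27.1 CPM in knockdown, against 75.03, 78.5 and 86.9 CPM in overexpression (log2 change -1.56 ± 0.06, edgeR adjusted p = 1.0e-15). NOTCH3 fell by 1.35 ± 0.07, the ligand gene JAG1 fell by 1.02 ± 0.05, and the target gene HES4 fell by 1.23 ± 0.06. HES4 lies in a run of lower neighbours and stood at -0.73 with neighbouring medians removed. In WNT signalling 12 of 25 rose and 11 fell. The frizzled receptor gene FZD5 had 35.1, 32.99 and 36.5 CPM in knockdown, against 117, 119 and 125 CPM in overexpression (log2 change -1.79 ± 0.05, edgeR adjusted p = 1.4e-17), and LGR4, a receptor for R-spondins, fell by 1.05 ± 0.04. In both pathways the members named here, picked by adjusted p, were separated library by library, as were 73.1% of all tested genes.

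In the TGF-beta, activin and BMP list 13 of 31 rose and 12 fell. ACVR2B, an activin receptor encoded on chromosome 3, had 42.9, 46.2 and 47.2 CPM in knockdown, against 15.3, 17.7 and 14.8 CPM in overexpression (log2 change 1.5 ± 0.07, edgeR adjusted p = 4.2e-14). RAS-MAPK had 11 of 33 higher and 10 lower, and BRAF, a kinase of the cascade, had 70.1, 69.8 and 68.3 CPM in knockdown, against 27.4, 26.4 and 23.8 CPM in overexpression (log2 change 1.42 ± 0.06, edgeR adjusted p = 3.6e-15). PI3K-AKT-mTOR had 16 of 33 higher and 10 lower. FOXO1, a transcription factor that the pathway restrains, had 34.2, 32.9 and 31.5 CPM in knockdown, against 75.9, 69.8 and 69.3 CPM in overexpression (log2 change -1.12 ± 0.06, edgeR adjusted p = 7.9e-14), and its exons overlap a neighbour on its strand. The Hippo list had 9 of 22 higher and 6 lower. For all tested genes the shares were 35.0% higher and 35.4% lower.

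Of the cell cycle genes, CCND2, cyclin D2, changed most. It had 143, 156 and 149.7 CPM in the knockdown libraries and 25.9, 26.5 and 26.4 CPM in the overexpression libraries (log2 change 2.50 ± 0.06, edgeR adjusted p = 5.5e-20), with control at 29.2 to 32.3 CPM, and its exons overlap a neighbour on its strand. In the list of D-type cyclins and G1 control 12 of 22 rose and 8 fell. The pocket protein genes went apart. RBL1 had 83.8, 86.8 and 85.7 CPM in knockdown, against 49.1, 47.6 and 41.4 CPM in overexpression (log2 change 0.89 ± 0.06, edgeR adjusted p = 5.7e-12), while RBL2 had 93.7, 87.5 and 86.3 CPM in knockdown, against 205, 202 and 200.3 CPM in overexpression (log2 change -1.18 ± 0.05, edgeR adjusted p = 1.0e-15). DNA replication had 16 of 44 higher and 15 lower, with RRM2, the small subunit of ribonucleotide reductase, at 1.08 ± 0.05, and mitosis and spindle genes had 8 of 31 higher and 10 lower. Targets of p53 had 5 of 26 higher and 16 lower with a median of -0.27, among them CCNG1, cyclin G1, which fell by 0.81 ± 0.05, and TP53I3, a quinone oxidoreductase gene, which rose by 1.21 ± 0.07.

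Cytosolic ribosomal protein genes rose in the main. Of 71 tested, 48 rose, 4 fell and 19 did not pass, with a median log2 change of 0.22. Their share of all counts was 8.11 to 8.31% in knockdown and 6.84 to 6.92% in overexpression. RPL30 had 379.9, 380.3 and 376 CPM in knockdown, against 211, 219 and 208 CPM in overexpression (log2 change 0.83 ± 0.04, edgeR adjusted p = 3.6e-14), RPL31 rose by 0.80 ± 0.04 and RPL36, which overlaps a neighbour on its strand, by 0.82 ± 0.04. Ribosomal proteins of mitochondria did not move as one, with 29 of 75 higher, 22 lower and a median of 0.03. Oxidative phosphorylation had 37 of 76 higher and 19 lower, with ATP5MC1, a rotor subunit of ATP synthase, at 0.70 ± 0.04 and COX6C, a cytochrome oxidase subunit, at 0.71 ± 0.05.

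Genes of hypoxia and glycolysis were higher in 17 of 29 and lower in 3, with a median of 0.17. BNIP3L, a mitophagy receptor, had 51.6, 53.1 and 48.1 CPM in knockdown, against 16.04, 16.4 and 16.7 CPM in overexpression (log2 change 1.64 ± 0.07, edgeR adjusted p = 2.0e-15), and HK2, a hexokinase, rose by 0.83 ± 0.06. The ATF4 and unfolded protein response list went the other way, with 8 of 28 higher, 17 lower and a median of -0.34 (-0.20 with neighbouring medians removed). ATF4, the transcription factor of the amino acid response, had 166, 147 and 149 CPM in knockdown, against 271, 294 and 295 CPM in overexpression (log2 change -0.90 ± 0.05, edgeR adjusted p = 4.2e-13), and SLC7A5, an amino acid transporter, fell by 0.78 ± 0.05. SEL1L, a part of the system that clears misfolded proteins, encoded on chromosome 14, rose by 1.10 ± 0.06. Of 26 tested disulfide isomerases and chaperones of the endoplasmic reticulum 7 rose and 10 fell around a median of -0.02, far from the -2.50 of PDIA3. ERO1B, an oxidase that recharges such isomerases, fell by 1.19 ± 0.05 and PDIA5, encoded on chromosome 3, rose by 0.86 ± 0.06.

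Cholesterol synthesis had 10 of 27 higher and 12 lower. INSIG1, which holds the sterol sensor in the endoplasmic reticulum, had 276, 268 and 272 CPM in the knockdown libraries and 70.4, 79.2 and 75.2 CPM in the overexpression libraries (log2 change 1.86 ± 0.05, edgeR adjusted p = 1.0e-18), while the synthesis enzyme genes SQLE and MVD were lower at -0.69 ± 0.04 and -1.09 ± 0.07. The interferon response had 13 of 26 higher, 8 of them at least 2-fold, and 7 lower. OAS3, a sensor of double-stranded RNA, had 22.3, 23.5 and 22.99 CPM in knockdown, against 4.72, 5.15 and 5.24 CPM in overexpression (log2 change 2.18 ± 0.09, edgeR adjusted p = 3.9e-15), and UBE2L6, a conjugating enzyme for ISG15, rose by 1.71 ± 0.07. Lysosome and V-ATPase genes had 15 of 32 higher and 14 lower, deadenylase and mRNA decay genes 9 of 25 higher and 9 lower, teneurins and latrophilins 3 of 6 higher and 0 lower, and neurofilament and neuronal genes 5 of 16 higher and 6 lower.

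Markers of other cell types were measured as well. Of 7 tested mesenchymal markers 5 rose and 1 fell, and their summed level was 84.6 to 88.6 CPM in knockdown and 68.3 to 71.2 CPM in overexpression. COL1A1, a fibrillar collagen chain, had 62.00, 63.8 and 64.04 CPM in knockdown, against 24.6, 28.05 and 27.2 CPM in overexpression (log2 change 1.25 ± 0.06, edgeR adjusted p = 3.0e-14), and its control level was 47.4 to 51.9 CPM. LUM, a small matrix proteoglycan, had 2.34, 2.29 and 2.37 CPM in knockdown, against 0, 0.166 and 0.0624 CPM in overexpression. ACTA2, smooth muscle actin, fell by 1.57 ± 0.07, and 3 of the 12 mesenchymal markers were at 0 in all 6 libraries. In such bulk samples fewer cells of a type and less RNA per cell cannot be told apart. In the list of extracellular matrix and adhesion 17 of 41 rose and 16 fell, with COL5A2 at 1.77 ± 0.07.

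Keratinocyte and HeLa-type epithelial markers had 3 of 8 higher and 2 lower and summed to 493.9 to 506 CPM in knockdown and 460.1 to 487 CPM in overexpression. KRT17 had 11.9, 9.58 and 13.99 CPM in knockdown, against 2.65, 2.27 and 2.81 CPM in overexpression (log2 change 2.20 ± 0.16, edgeR adjusted p = 2.4e-11). Of blood cell markers 2 were tested, 1 higher and 1 lower, with a sum of 1.39 to 1.68 CPM in knockdown and 1.72 to 2.26 CPM in overexpression, and 4 of 10 were at 0 in all 6 libraries. Whether other cells took part in any difference was not tested.

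Annotated features had different medians in higher and lower genes, with wide overlap and no test. Genes at least 2-fold higher in knockdown had a median annotated 3′ UTR of 1530 bases (quartiles 616 and 3311 bases, n = 666 with one), genes at least 2-fold lower 1013 bases (quartiles 394 and 2300.0 bases, n = 637) and all tested genes 1358 bases. TGTA was found at a median of 5.38 per kb of 3′ UTR in the higher genes, 4.29 in the lower and 4.94 in all, and the GC content of the 3′ UTR was 40.1%, 48.5% and 42.8% for higher, lower and all genes. Within the last 100 bases TGTA was present in 52.9% of the higher, 48.7% of the lower and 54.9% of all genes. Levels differed too, with a median of 2.61 CPM in the higher and 6.61 CPM in the lower genes against 29.4 CPM in all, as did the median gene length, at 43.9, 23.6 and 33.4 kb. These medians describe annotated genes, which are not replicates, and motif density, GC content and length are linked in sequence. Of 124 long intergenic RNAs 20 were at least 2-fold higher (16.1%) and 20 at least 2-fold lower (16.1%). Of 11675 coding genes 668 were at least 2-fold higher (5.72%) and 639 at least 2-fold lower (5.47%).

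Chromosomes differed in their median change. It was 0.35 on chromosome 3, where 416 of 654 tested genes were higher (63.6%) and 90 lower (13.8%), 0.27 on chromosome 14, 0.21 on chromosome 20 and 0.20 on chromosomes 7 and 21. It was -0.29 on chromosome 16, where 321 of 535 genes were lower (60.0%), and -0.24 on chromosome 13. In the CFIm25 libraries the corresponding contrast had medians of -0.12 on chromosome 3, -0.04 on chromosome 14, -0.08 on chromosome 20, -0.02 on chromosome 7 and 0.29 on chromosome 21, and of -0.07 on chromosome 16 and -0.09 on chromosome 13. Chromosomes 21, 16 and 13 thus had medians of the same sign in both contrasts, and the other 4 of opposite sign. The cause was not tested. With the medians of windows of 50 neighbouring genes removed 3872 genes were higher and 3947 lower.

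The same low against high contrast for CFIm25, with 2 knockdown and 3 overexpression libraries, shares no library with the CFIm68 contrast. In it 6206 of 11980 tested genes passed (51.8%), 3004 higher (25.1%) and 3202 lower (26.7%). Of 11731 genes tested in both, 4624 passed in both, and 3369 of these (72.9%) went the same way. The genes higher in both were 40.4% of those higher with CFIm68 and 55.7% of those higher with CFIm25, and the genes lower in both were 41.0% of those lower with CFIm68 and 54.3% of those lower with CFIm25. Across genes the log2 changes had r = 0.30 and Spearman's rho = 0.35. Genes are not independent replicates.

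A direct test of the difference between the contrasts, on all 11 libraries, passed for 6423 of 12196 genes (52.7%), with 3103 larger for CFIm68 (25.4%) and 3320 smaller (27.2%). The targeted transcripts were among them. CPSF6 had 528 and 543 CPM in CFIm25 knockdown, against 262, 257 and 239 CPM in CFIm25 overexpression (difference of log2 changes -5.21 ± 0.08, edgeR adjusted p = 9.7e-25), the opposite direction to its CFIm68 contrast. NUDT21 had 54.9 and 53.2 CPM in CFIm25 knockdown, against 779, 737 and 675 CPM in CFIm25 overexpression (difference of log2 changes 2.40 ± 0.09, edgeR adjusted p = 7.2e-16).

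Several genes near 0 in CFIm68 overexpression were not so in CFIm25 overexpression. ZNF83 had 19.2 and 15.8 CPM in CFIm25 knockdown, against 46.99, 39.6 and 43.2 CPM in CFIm25 overexpression (difference of log2 changes 8.01 ± 0.25, edgeR adjusted p = 6.1e-18). SLFN12 had 10.4 and 8.36 CPM in CFIm25 knockdown, against 16.4, 15.7 and 16.7 CPM in CFIm25 overexpression (difference of log2 changes 9.45 ± 0.37, edgeR adjusted p = 7.3e-16). RAB17 had 6.98 and 6.74 CPM in CFIm25 knockdown, against 6.45, 6.93 and 6.93 CPM in CFIm25 overexpression (difference of log2 changes 6.15 ± 0.33, edgeR adjusted p = 4.0e-13). All 3 genes kept several CPM in every CFIm25 overexpression library. PDGFD and ZNF667 were also among the 5 largest positive differences (7.52 and 6.44). ZNF667 had 14.9 and 13.9 CPM in CFIm25 knockdown, against 21.4, 18.01 and 22.4 CPM in CFIm25 overexpression, and MAGI2 had 5.25 and 5.84 CPM in CFIm25 knockdown, against 5.34, 5.23 and 3.84 CPM in CFIm25 overexpression, so neither was near 0 there. The other 2 of the 7 genes were low in both overexpression groups. PHF7 had 7.94 and 9.42 CPM in CFIm25 knockdown, against 0.555, 1.08 and 0.874 CPM in CFIm25 overexpression, a CFIm25 log2 change of 3.40 ± 0.21 (edgeR adjusted p = 1.6e-09) beside 5.21 ± 0.22 for CFIm68 (difference 1.79). TAF7L had 6.296 and 5.75 CPM in CFIm25 knockdown, against 0.341, 0.568 and 0.233 CPM in CFIm25 overexpression. Its difference of 0.24 did not pass (edgeR adjusted p = 0.7).

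Other genes were near 0 in CFIm25 overexpression or, in the case of IFI16, low but above the limit of 0.5 CPM. CD99, a surface glycoprotein, had 54.2 and 51.6 CPM in CFIm25 knockdown, against 0.0427, 0.1704 and 0.175 CPM in CFIm25 overexpression, while the CFIm68 libraries had 50.99, 51.2 and 46.7 CPM in knockdown, against 42.4, 40.4 and 39.1 CPM in overexpression (difference of log2 changes -8.42 ± 0.21, edgeR adjusted p = 4.3e-20). PNMA8A had 6.16 and 6.11 CPM in CFIm25 knockdown, against 0.0427, 0.114 and 0.0582 CPM in CFIm25 overexpression (difference of log2 changes -9.11 ± 0.28, edgeR adjusted p = 5.2e-18). SERPINB9, a granzyme inhibitor, had 3.06 and 2.95 CPM in CFIm25 knockdown, against 0.256, 0.0568 and 0.0582 CPM in CFIm25 overexpression (difference of log2 changes -6.53 ± 0.34, edgeR adjusted p = 2.5e-13), and IFI16, a DNA sensor, had 9.22 and 8.48 CPM in CFIm25 knockdown, against 1.15, 1.02 and 0.9900 CPM in CFIm25 overexpression (difference of log2 changes -4.84 ± 0.18, edgeR adjusted p = 1.8e-16). For PNMA8A, SERPINB9 and IFI16 the CFIm68 contrast ran the opposite way, at -2.75 ± 0.09, -2.15 ± 0.11 and -1.81 ± 0.09.

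Among the gene groups, VMA21 rose in both contrasts and by more with CFIm68 (difference 1.05; CFIm25 1.76 ± 0.13), as did CCND2 (1.19; 1.29 ± 0.08). PDIA3 fell with CFIm68 but stood at 0.22 ± 0.06 with CFIm25 (difference -2.73). TNRC6B was at 1.56 ± 0.09 with CFIm25 (difference 0.27, edgeR adjusted p = 0.049). For oxidative phosphorylation the difference that passed was positive in 3 and negative in 47 of 76 genes. It was positive in 3 and negative in 24 of 34 core spliceosome genes and in 3 and 20 of 27 cholesterol genes. The balance was the other way for hypoxia and glycolysis, with 15 positive and 4 negative of 29, and for the ATF4 and unfolded protein response list, with 14 and 5 of 28. Over all genes the shares were 25.4% positive and 27.2% negative.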

How the data were processed

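Poly(A) RNA of 14 HEK 293 libraries was sequenced after TruSeq Stranded mRNA preparation from total RNA, per the labels' protocols. The authors deposited 1 table of unnormalized counts for each gene and library, with cutadapt 1.16, STAR 2.7.1a and hg38 named in the submitters' processing notes; counting tool, annotation and strand setting are not stated there. Of its 18006 genes, 3021 have no read in any of the 6 CFIm68 libraries, and 17983 identifiers have a name in GENCODE 29 or the supplied name table.

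The 3 CFIm68 knockdown and 3 CFIm68 overexpression libraries were fitted alone in edgeR 4.0.16 (R 4.3.3): filterByExpr (minimum count 10, total 15), TMM scaling (factors 0.977 to 1.02), quasi-likelihood test with 1 coefficient per group, Benjamini-Hochberg adjustment over 11812 genes and a threshold of 0.05. The common dispersion had a square root of 0.0400, and standard errors come from the quasi-likelihood statistic. CPM values are counts on the TMM-scaled library size, and control values use a scaling of all 14 libraries. The difference between the CFIm68 and CFIm25 contrasts was fitted on the 11 libraries without controls. The test was also run on simulated counts, with the outcome not reported here. In them few genes, none at low counts, were changed and no chromosome was shifted, unlike in these data. They cannot show how the test does under such shifts or near 0. No pair of libraries agreed within sampling noise (chi-square per degree of freedom 1.81 to 7.45).

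The members, the 36 gene lists and the naming rule were chosen with earlier results of these data known. The rule names the CFIm subunits, 15 genes higher and 15 lower by size of log2 change among called genes of at least 5 CPM whose groups do not overlap, genes near 0 in one group (under 0.5 CPM in every library) and at least 5 CPM in the other, up to 4 members of each list by adjusted p, all tested members of the 3′ end, target and microRNA lists, and the 5 largest differences each way between the contrasts. The text names a part of them, and some are not reported here. Runs of neighbours, ZNF-named genes and positions relative to control were examined after the values were seen. Of 116 named genes 17 share exonic bases with another gene on their own strand and 53 on either. Coordinates and 3′ UTRs are those of GENCODE 29.

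Alternatives were DESeq2 1.42.0, limma-voom (limma 3.58.1), scaling by median ratios, testing without the low-count filter or with 1 of at least 1 CPM in 3 libraries, 1 fit of all 14 libraries, a replicate block, removal of the medians of 50 neighbouring genes, and leaving out each library. Removal of neighbouring medians used limma on log2 CPM with a small added count in place of edgeR. Figures were drawn with matplotlib 3.10.9.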

Additional observations from a re-analysis of the deposited data

Results flagged for a closer look

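A single pattern was marked for a closer look, a difference between the CFIm68 and the CFIm25 contrast of knockdown over overexpression, tested gene by gene with edgeR on the 11 libraries (adjusted p under 0.05 over 12196 genes). It held for 99 of the 116 genes named with values, 48 with a larger and 51 with a smaller log2 change for CFIm68, in a test that 52.7% of all genes passed. Named genes were chosen in part for this difference or for a large CFIm68 change. The values below are differences of log2 changes, CFIm68 minus CFIm25.

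Among the CFIm, CPSF, CstF and other 3′ end genes the difference was 2.40 for NUDT21, 0.75 for CPSF2, 0.60 for PAPOLA, 0.48 for PABPC1, 0.39 for CPSF3, -0.30 for SYMPK, -0.43 for CSTF2, -0.63 for CPSF1 and -5.21 for CPSF6. For the genes with the largest rises and those near 0 in overexpression the values were 9.45 for SLFN12, 8.01 for ZNF83, 7.52 for PDGFD, 6.44 for ZNF667, 6.15 for RAB17, 5.26 for PCDH19, 4.68 for MAGI2, 4.24 for STS, 4.18 for REC8, 4.05 for ASTN1, 3.53 for PLA2G4A, 3.23 for PUDP and 1.79 for PHF7. Of the chromosome 19 zinc finger genes, those that passed had differences of 4.98 for ZNF816, 4.88 for ZNF468, 4.86 for ZNF808 and 4.68 for ZNF681. Among the genes with the largest falls the difference was -0.38 for HNRNPLL, -1.03 for DNAJC3-DT, -1.15 for PRSS53, -1.18 for ZRANB2, -1.25 for PABIR2, -1.29 for PDIA2, -1.63 for RCN3, -1.92 for SCARF2, -2.06 for AOX1, -2.11 for TERT, -2.73 for PDIA3, -2.97 for MXRA8, -4.39 for CXXC4 and -9.11 for PNMA8A. For the published targets the values were 1.05 for VMA21, 0.80 for GSK3B, 0.65 for DICER1 and -0.89 for FHL1.

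Of the silencing complex and microRNA processing genes, those that passed had differences of 0.96 for FMR1, 0.52 for AGO4, 0.28 for KHSRP, 0.27 for TNRC6B, 0.26 for FXR1, -0.25 for AGO2, -0.27 for AGO1, -0.28 for DROSHA, -0.29 for DGCR8, -0.40 for XPO5, -0.49 for MOV10 and -0.66 for DDX17. Among the splicing genes the difference was -0.38 for TRA2A, -0.54 for U2AF2, -0.67 for SRSF12, -0.70 for HNRNPDL, -0.76 for SNRPA1 and -1.03 for SRRM2. For the cell cycle and p53 target genes the values were 1.19 for CCND2, 1.18 for TP53I3, 1.01 for RBL1, 0.50 for RRM2, -0.65 for CCNG1 and -0.90 for RBL2. Of the signalling genes, those that passed had differences of 2.91 for INHBA, 1.02 for BRAF, 0.34 for ACVR2B, -0.21 for JAG1, -0.49 for FOXO1, -0.78 for HES4, -0.80 for LGR4, -0.91 for SPRY4, -0.997 for FGFR3, -1.07 for NOTCH1, -1.42 for NOTCH3 and -1.56 for FZD5. Among the ribosomal, mitochondrial, glycolysis and cholesterol genes the difference was 1.01 for BNIP3L, 0.92 for HK2, 0.37 for RPL31, 0.21 for RPL36, -0.29 for ATP5MC1, -0.95 for MVD and -1.19 for SQLE. For the stress response and endoplasmic reticulum genes the values were 0.98 for SEL1L, 0.74 for PDIA5, -0.49 for ERO1B and -0.99 for ATF4. Of the interferon, matrix and marker genes, those that passed had differences of 3.23 for KRT17, 2.20 for OAS3, 1.95 for COL5A2, 1.19 for COL1A1 and 0.94 for UBE2L6. Among the other genes named for a large difference the difference was -4.84 for IFI16, -6.53 for SERPINB9 and -8.42 for CD99.

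No library was tested for lying apart from its group, since each group has 3 libraries or fewer. The cause of these differences was not tested, and the labels give the contrasts as separate sets of libraries.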

How the results depend on the processing

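The counts of genes called kept within 1.5 times of the reported ones in all 92 recomputations, which covered 14 alternatives for the CFIm68 contrast and 18 for the difference between contrasts. Called higher ranged from 3865 (DESeq2) to 4427 (no filter on low counts) and called lower from 3867 to 4291, with 541 to 924 at least 2-fold higher and 548 to 776 at least 2-fold lower. Leaving out each library in turn gave 3872 to 4265 higher and 3879 to 4291 lower, and a log2 change of CPSF6 of -4.15 to -4.11. For the difference between contrasts 2629 to 3250 genes were larger and 2812 to 3503 smaller. The median log2 change of all genes stayed between -0.01 and 0.04 under every scaling and filter.

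Among 116 named genes, removing the medians of 50 neighbouring genes turned the sign of CPSF1 (0.17), CPSF3 (-0.14) and KHSRP (-0.0662) and ended the calls of SYMPK (-0.03) and PAPOLA (0.08). This alternative subtracts what neighbouring genes share and, unlike the main fit, uses limma on log2 CPM with a small added count. Without CFIm68 knockdown replicate 1 DDX5 missed the threshold (-0.10), and without CFIm68 overexpression replicate 2 CSTF2 did (-0.13), by the loss of a library. Of 504 recomputed list medians 38, in 24 lists, moved by more than the spread between libraries, 21 of them with neighbouring medians removed. That step brought the argonaute list to 0.54, the published targets to 0.21, ATF4 to -0.20, NOTCH to -0.14, G1 control to 0.05, 3′ end termination to 0.02 and mesenchymal markers to 0.92, and the SR list to -0.38. Among the medians that moved by more than this spread, signs turned in 4 lists. They turned with neighbouring medians removed for CPSF and CstF (-0.08), WNT (-0.01) and extracellular matrix (-0.04). They also turned without CFIm68 knockdown replicate 3 or overexpression replicate 2 for CPSF and CstF (-0.05 and -0.06), and without overexpression replicate 3 for mitosis (-0.02). With neighbouring medians removed RAS-MAPK turned as well, from -0.05 to 0.001, but by no more than this spread.

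The replicate numbers are shared between the groups, and no label says whether they pair the samples. Deviations of same-numbered libraries correlated at 0.06, -0.01 and 0.02, and those of differently numbered ones at -0.05 to 0.03. With deviations from means of 3 libraries, such values cannot decide whether the numbers pair the samples. With the number as a block, 4216 genes were higher and 4270 lower.

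With 3 libraries a group, small differences can be missed, and overexpression libraries were less deep, so a level near 0 there rests on a few reads. Counts per gene do not show 3′ UTR length or site use.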

Other observations

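From the RAS-MAPK, p53 and activin lists 4 further genes were picked after their values were seen, for the size of their change. FGFR3, a fibroblast growth factor receptor, had 1.69, 1.72 and 1.73 CPM in knockdown, against 4.27, 6.32 and 5.55 CPM in overexpression (log2 change -1.66 ± 0.17, edgeR adjusted p = 1.0e-08). SPRY4, a feedback inhibitor of receptor tyrosine kinases, had 2.44, 1.92 and 2.29 CPM in knockdown, against 6.53, 5.598 and 5.99 CPM in overexpression (log2 change -1.43 ± 0.15, edgeR adjusted p = 1.1e-08). MDM2, the ubiquitin ligase that restrains p53, had 4.27, 3.77 and 4.301 CPM in knockdown, against 9.702, 9.81 and 6.798 CPM in overexpression (log2 change -1.09 ± 0.14, edgeR adjusted p = 2.3e-07). MDM2 overlaps a neighbour on its strand. INHBA, which encodes the activin A chain, had 1.02, 1.19 and 1.005 CPM in knockdown, against 0, 0.222 and 0 CPM in overexpression (log2 change 3.63 ± 0.56, edgeR adjusted p = 4.5e-06). In all 4 genes the libraries of the groups did not overlap, as in 73.1% of all tested genes. Such separation is favoured by picking genes for the size of their change. INHBA rests on very few reads in overexpression. In the CFIm25 contrast the log2 change was -0.68 ± 0.26 for FGFR3, -0.54 ± 0.19 for SPRY4, -0.82 ± 0.16 for MDM2 and 0.71 ± 0.32 for INHBA.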
